A study of Mus musculus with 12 samples.

Results

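Old and young C57BL/6J mice on a low-fat diet were compared along the small intestine with 6 of the 12 microarrays of the series, 3 of old and 3 of young mice. The arrays were taken by their labels, and each old array was set against the young array of the same segment, proximal, middle or distal. Of 19938 genes represented by a probe set with exactly 1 symbol, 11914 were tested, namely those that exceeded an intensity of 50 on 1 or more arrays, after the removal of 34 genes of pancreatic acinar cells. All mice were male, were housed individually and were 4 months (young) or 21 months (old) old. After lab chow and a low-fat run-in they received, for 2 weeks, a purified palm oil diet with 10% of energy from fat, or with 45% in the high-fat groups to which the low-fat groups are compared. They were killed in the fed state. The labels name no transgene, mutation or drug in any group.

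Each array held RNA of scraped mucosa and submucosa to which 6 young or 8 old mice had given equal amounts. All 3 segment arrays of an age and diet share their mice. The 6 low-fat arrays therefore stand for 2 pools, and the high-fat arrays for 2 others. Within a segment there is 1 array per age and no test. Over the 3 segments, the paired p-value measures how far the age difference varied between segments of these 2 pools and does not measure the spread between mice. The low-fat arrays had the expression of their labelled segments. Vil1, an actin-bundling protein of enterocyte microvilli, lay between 12.81 and 12.97 on the log2 scale on all 6 arrays. Fabp6, the ileal bile acid binding protein, had log2 intensities of 4.91, 8.84 and 13.06 along the gut in old mice and of 6.07, 9.49 and 13.06 in young mice. Acinar genes, which mark adhering pancreas, differed at the median by 0.17, −0.24 and −0.06 (log2, old minus young) from proximal to distal, and 8 of 34 were over 2-fold lower in the middle segment of old mice.

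The small intestine absorbs nutrients through an epithelium that is renewed from crypts within days, while the smooth muscle, fibroblasts, vessels and resident immune cells around it persist far longer. Digestive enzymes and transporters are distributed along its length, with iron uptake in the duodenum and bile acid and cobalamin uptake in the ileum. A difference in the level of an RNA in a scraping can come from fewer cells of a type or from less RNA per cell, and arrays of whole scrapings cannot tell these apart. In the values below, a level is a log2 intensity, a difference is old minus young on the log2 scale, and 1 unit is a 2-fold change.

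Most genes differed little between old and young mice on the low-fat diet. Differences lay within 0.5 for 97.5% of proximal, 99.0% of middle and 98.2% of distal values, and their SD over genes was 0.186, 0.161 and 0.179. In old mice 4 genes were over 2-fold higher proximally (0.0336% of genes tested), 7 in the middle segment (0.0588%) and 10 distally (0.0839%), and 22 (0.185%), 6 (0.0504%) and 18 (0.151%) were lower. In either direction these were 0.218%, 0.109% and 0.235%. Over 2-fold differences were found in 54 genes in at least 1 segment, which is 0.453% of genes tested, with 16 higher (0.134%) and 38 lower (0.319%) in old mice. Higher by over 2-fold in at least 2 segments were Igkv4-91, Mt2, Gm10451 and Serpinb5, 4 genes or 0.0336% of those tested. Lower by over 2-fold in at least 2 segments were Ighg3, Rps4l, Myh11, Saa1, Bco1 and Mcoln3, 6 genes or 0.0504%. In all 3 segments only Igkv4-91 was over 2-fold higher (0.00839% of genes), and only Ighg3 and Rps4l were over 2-fold lower (0.0168%). At a threshold of 1.5-fold in all 3 segments, Mt1 joined Igkv4-91 and Mt2 on the higher side (3 genes, 0.0252%). On the lower side (10 genes, 0.0839%) stood Acta2, Chrm2, Cnn1, Des, Flna, Myh11, Myl9 and Tagln beside Ighg3 and Rps4l. These 8 are known from smooth muscle.

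Paired by segment, limma with Benjamini-Hochberg adjustment over all 11914 genes called 1 gene, Igkv4-91, which rose (0.00839% of genes tested). It called none that fell. At an unadjusted p under 0.05 there were 537 higher (4.51%) and 619 lower genes (5.20%), and at an adjusted p under 0.1 there were 9 higher and 22 lower. The count turned on the variance model and the filter. With an intensity trend and robust variance 168 genes were called, with an intensity limit of 100 there were 35, and without the distal pair there was none. A second fit, to the means of the 4 pools, had diet as a covariate. The residual of a gene in it came from how unlike the age differences of the 2 diets were, in different mice. This fit called 94 higher (0.789%) and 259 lower genes (2.17%), and 88 in all without the distal segment. In what follows, "rose" and "fell" are used for genes that this fit called at an adjusted p under 0.05, over both diets. Igkv4-91 was among them (limma adjusted p = 0.016). The fit had 1 residual degree of freedom, to which limma added 5.72 prior degrees of freedom taken from all genes. The SE of a gene was thus set largely by the other genes, and it does not measure the spread between mice.

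Smooth muscle contractile genes were lower in old mice in every segment. Of 20 tested members of a list of 22, 17 were lower in all 3 segments, as were 14.6% of all genes, and the list's median difference was −0.55, −0.48 and −0.87 from proximal to distal (all genes, −0.02, 0.02 and 0.01). Over both diets 15 of the 20 were called lower and none higher (2.17% and 0.789% of all genes). The CArG box, which serum response factor binds, lay in the 250 bases before the RefSeq start of 1 of 17 list genes with such a window (5.88%), Myl9, and in 1.62% of all 27025 genes. Myh11 (chr16:14194527-14292188, GRCm38.p6), the smooth muscle myosin heavy chain, had levels of 6.55, 7.58 and 8.97 in the proximal, middle and distal segment of old mice and of 7.84, 8.45 and 10.05 in young mice. It was lower in old mice in each segment, although the groups overlapped across segments because its level increased from the proximal to the distal end. The mean difference was −1.08 (SE 0.09, n = 3 segment pairs, limma adjusted p = 0.052), and over the pool means it fell by 0.99 (SE 0.06, limma adjusted p = 0.0025).

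Other leading genes of the list had mean differences of −0.82 or lower, while the median over the list was −0.65. Acta2, smooth muscle actin, stood at 7.81, 8.83 and 10.16 in old against 9.04, 9.70 and 10.93 in young mice. Cnn1, calponin, stood at 5.03, 5.95 and 7.11 against 6.28, 6.71 and 8.00. Both were thus about 1 log2 unit lower on average, with mean differences of −0.96 for Acta2 and −0.97 for Cnn1. The proximal old array was under the intensity limit for Cnn1, so that the size of its difference there is not measured well. Myl9, the regulatory myosin light chain, had differences of −0.84, −0.68 and −1.13 in the same order. Des, desmin of the intermediate filaments, stood at 5.72, 5.86 and 6.71 in old and at 6.47, 6.58 and 7.71 in young mice, and Flna, the actin crosslinker filamin A, had differences of −0.79, −0.64 and −1.02. For these genes the paired limma adjusted p lay at 0.066 to 0.069, and each fell over the pool means. The list member that departed most from the others was Lmod1, the actin nucleator leiomodin, with 0.32, −0.19 and 0.08. Chrm2, the muscarinic receptor through which acetylcholine acts on gut muscle, was no member of the list. It had levels of 5.32, 5.43 and 6.27 in old and of 6.15, 6.17 and 7.19 in young mice, a mean difference of −0.83 (SE 0.06, limma adjusted p = 0.052), and it fell over the pool means (adjusted p = 0.0067). Only 1 of the 3 old low-fat arrays was over the intensity limit for Chrm2, so that the size of its difference is not measured well.

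Markers of other cells of the gut wall were lower as well, most in the proximal segment. Of 18 fibroblast and matrix genes, 15 were lower in all 3 segments (14.6% of all genes were) and 14 fell over both diets (2.17% of all genes), with proximal, middle and distal medians of −0.62, −0.27 and −0.37. Sparcl1, a matrix glycoprotein, had levels of 8.04, 8.00 and 8.92 in old and of 8.98, 8.52 and 9.69 in young mice. It was lower in old mice in each segment, with a mean difference of −0.74 (SE 0.09, paired limma adjusted p = 0.095). Sparc, Pdgfra (a receptor for platelet-derived growth factor on fibroblasts) and Col1a2 (a chain of type I collagen) followed with mean differences of −0.64, −0.54 and −0.50, and all 4 genes fell over the pool means. Of 15 endothelial and pericyte genes, 8 were lower in all 3 segments and 8 were called lower over both diets, against the same 14.6% and 2.17% of all genes, with medians of −0.60, −0.16 and −0.18. Rgs5, a regulator of G protein signalling in pericytes, had levels of 6.26, 6.75 and 7.66 in old and of 7.46, 7.31 and 8.64 in young mice. Plvap, of the endothelial diaphragms, had differences of −1.06, −0.34 and −0.39. Pdgfrb, a pericyte receptor, went the other way in the distal segment, with −0.42, −0.11 and 0.53.

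Macrophage and other myeloid genes had medians of −0.45, −0.07 and −0.08, with 11 of 21 lower in all 3 segments and 5 that fell over the pool means (14.6% and 2.17% of all genes). Itgax, an integrin chain of dendritic cells and macrophages, had differences of −0.47, −0.26 and −0.32. C1qa, of the first complement component, had −0.50, −0.18 and −0.22, and both fell. In the same arrays the summed level of the 20 smooth muscle genes was 11.40, 11.64 and 12.44 in old against 11.85, 12.13 and 13.21 in young mice. That of the 18 fibroblast genes was 11.82, 11.68 and 11.81 against 12.29, 11.88 and 12.14. The sum over 20 genes of the enterocyte brush border moved far less, with 16.31, 16.15 and 16.16 against 16.31, 16.19 and 16.15. Only 5 of 15 measured genes of nerve, glial and pacemaker cells passed the intensity limit. These 5 lay outside the calls in both fits, with medians of 0.01, −0.01 and −0.10. Their summed level was low, at 8.11, 8.45 and 8.87 in old against 8.11, 8.33 and 8.91 in young mice. A difference in these cells could therefore have been missed. The depth of the scraping into the gut wall is not recorded in the sources used here, and its part in these differences was not tested.

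**Figure D1:**
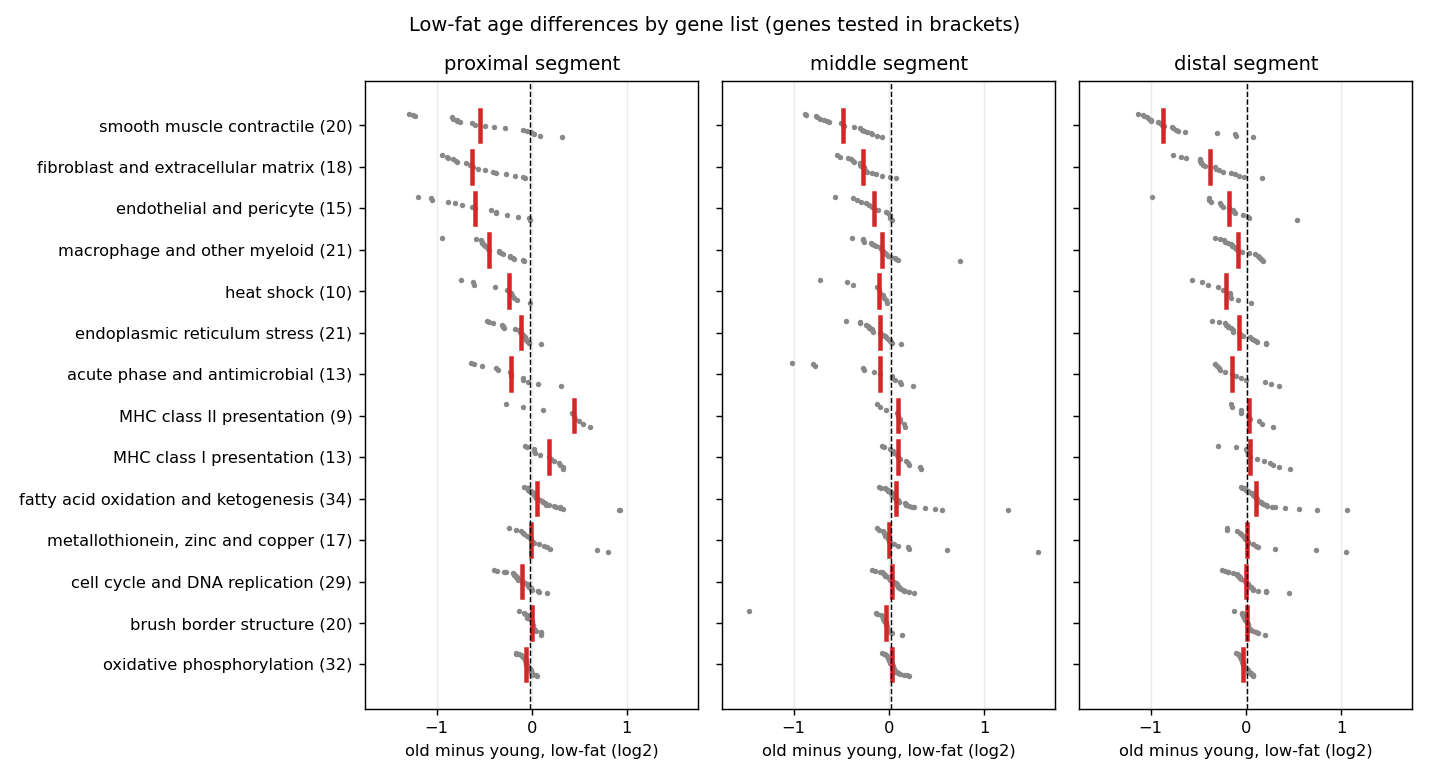
Low-fat age differences (old minus young, log2, horizontal axes) of the tested members of 14 gene lists in the proximal, middle and distal segment, 1 grey point per gene, with the list median as a red bar and the median of all genes as a dashed line. The smooth muscle median lies at −0.55, −0.48 and −0.87, whereas those of the brush border and of oxidative phosphorylation lie within 0.06 of 0. The distal point of Saa1 (−2.37), of the acute phase list, lies beyond the axis and is not shown.

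Heat shock genes, whose products refold damaged proteins, were lower in all 3 segments for 9 of 10 tested members, with medians of −0.24, −0.10 and −0.20, and 4 fell over both diets. Of all genes 14.6% were lower in all 3 segments and 2.17% fell. Hsph1, a nucleotide exchange factor for Hsp70, had levels of 9.13, 8.87 and 9.43 in the proximal, middle and distal segment of old mice and of 9.87, 9.59 and 9.99 in young mice. The 3 old arrays all lay below the 3 young arrays. The mean difference was −0.68 (SE 0.06, n = 3 segment pairs, paired limma adjusted p = 0.066), and over the pool means Hsph1 fell by 0.69 (SE 0.05, adjusted p = 0.0027). Hspa1a, an inducible Hsp70, stood at 6.48, 6.39 and 6.72 in old and at 7.09, 6.82 and 7.18 in young mice, again with no overlap. Its signal is uncertain in origin, as Hspa1b is a near-identical copy. Hsp90aa1, the inducible Hsp90, had 11.18, 11.12 and 11.33 against 11.56, 11.50 and 11.72, and Hspb1, a small heat shock protein, had differences of −0.61, −0.13 and −0.29. All 4 fell. Bag3, a co-chaperone, had differences of −0.02, −0.01 and 0.06. Of 21 genes of endoplasmic reticulum stress, 16 were lower and 5 higher in the mean, as were 5513 and 6401 of all 11914 genes. Of the 21, 11 were lower in all 3 segments and 4 fell. Among the 4 were Creld2 and Pdia4, which assist disulphide formation, with mean differences of −0.42 and −0.35.

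Heat shock factor binds inverted pairs of the pentamer nGAAn. The pairs GAANNTTC and TTCNNGAA were searched on both strands in the 250 bases before RefSeq transcript starts (GRCm38.p6), since 9 of the 10 heat shock genes had the same sign. A pair lay in 6 of 8 tested heat shock genes with such a window (75.0%) and in 3932 of 27025 genes. In Hspa1a (chr17:34972157-34972406, minus strand) it lay at −104 to −97 from the start, and the window is printed with the pair in capitals. For Hsph1, where the window overlaps another transcript, only the pair, at −54 to −47 from a start, and the 10 bases on either side are shown. A match describes these letters only.
Hspa1a: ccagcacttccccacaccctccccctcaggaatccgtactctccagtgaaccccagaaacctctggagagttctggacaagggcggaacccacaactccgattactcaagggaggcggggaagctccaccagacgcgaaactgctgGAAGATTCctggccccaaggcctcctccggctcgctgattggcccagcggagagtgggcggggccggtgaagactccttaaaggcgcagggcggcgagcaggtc
Hsph1: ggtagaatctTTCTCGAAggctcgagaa

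The metallothioneins, small proteins that bind zinc and copper, were higher in old than in young mice. Mt1 (chr8:94178883-94180327) had levels of 10.37, 10.33 and 10.57 in the 3 segments of old mice and of 9.68, 9.71 and 9.83 in young mice, so that all 3 old arrays lay above all 3 young ones. Its mean difference of 0.68 (SE 0.06, paired limma adjusted p = 0.052) corresponds to 1.60-fold. Mt2 (chr8:94172618-94173567) had levels of 8.93, 9.36 and 9.88 against 8.14, 7.80 and 8.83, again with no overlap between the ages, and with the widest gap in the middle segment. Its mean difference was 1.14 (SE 0.14, adjusted p = 0.095), or 2.20-fold. In the high-fat pools the difference of Mt1 was −0.22, −0.09 and −0.08 and that of Mt2 was −0.45, 0.01 and −0.10. The test of the difference between the diets gave Mt1 the smallest p of all genes (0.81 higher on the low-fat diet, SE 0.13, unadjusted p = 9.9e-05), but its limma adjusted p was 0.999, and for Mt2 the unadjusted p was 0.0029. No gene passed that test after adjustment, and 318 had an unadjusted p under 0.05. The list of 17 tested genes of zinc and copper handling, with Mt1 and Mt2 among them, had medians of 0.00, 0.00 and 0.01, and after those 2 genes the highest mean was that of Atp7b, a copper pump, at 0.21.

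The core of the metal response element, to which the zinc-sensing factor Mtf1 binds, was searched in the same windows as TGCACNC and TGCGCNC on both strands. It lay in 11 of 15 genes of the list with a window (73.3%) and in 23.8% of 27025 genes. Mt2 held 3 copies, at −223 to −217, −128 to −122 and −50 to −44 from its start, in chr8:94172368-94172617 on the plus strand. For Mt1, whose window overlaps a predicted transcript, 1 copy at −23 to −17 from the start is shown with 10 bases on either side. Capitals mark the cores.
Mt2: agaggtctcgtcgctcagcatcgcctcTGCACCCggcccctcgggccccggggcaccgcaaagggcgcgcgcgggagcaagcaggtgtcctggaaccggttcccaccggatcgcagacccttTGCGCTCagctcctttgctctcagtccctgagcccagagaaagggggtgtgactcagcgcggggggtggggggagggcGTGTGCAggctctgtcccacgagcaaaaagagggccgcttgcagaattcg
Mt1: ggtcccgctgTGCACACtggcgctcca

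Antibody genes had the highest and the lowest mean difference over the 3 segments, in each case with 1 age wholly under the intensity limit on the low-fat diet. Igkv4-91 (chr6:68768555-68769103), a variable segment of the kappa light chain, had levels of 7.71, 7.63 and 7.51 in old mice and of 5.60, 4.92 and 5.25 in young mice, where all 3 arrays were under the intensity limit of 50 (5.64 on the log2 scale). The mean difference of 2.36 (SE 0.12, limma adjusted p = 0.014), the call of the paired fit, therefore rests on young levels that have only an upper bound. In the high-fat pools it was 1.73 and 2.10 higher in old mice in the proximal and middle segments and −0.35 in the distal one. Ighg3, the constant region of IgG3, stood at 5.63, 3.99 and 4.12 in old against 6.88, 6.07 and 5.53 in young mice. Its mean difference was −1.58 (SE 0.16, adjusted p = 0.066). All 3 old arrays and 1 young array lay under the limit, so that the size of this difference is not measured well. In the high-fat pools Ighg3 was 1.13 and 1.43 higher in old mice in the proximal and middle segments and −0.23 in the distal one, and the pool means gave no call (adjusted p = 0.69). Igkv19-93 had differences of −0.89, −0.58 and −1.09, though a second probe set for it gave 0.50, −0.68 and −0.57.

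A total of 10 heavy and light chain genes was tested, listed by symbol after their values had been seen. Their mean low-fat differences had an SD of 1.04, against 0.13 over all genes. Of the 10, 7 had 1 sign in all 3 segments (31.8% of all genes did), and 7 had mean differences of opposite sign on the 2 diets. Of all genes, 64.7% had the same sign on both diets. Igha, the IgA constant region, had levels of 9.31, 8.97 and 8.71 in old and of 8.94, 8.47 and 8.38 in young mice, a difference of 0.40 (adjusted p = 0.14). In the high-fat pools the differences of Igha were −0.69, 0.02 and −0.81. Igha is also listed, beside Ighv3-6 or Ighv1-33, by 2 untested probe sets that were over 2-fold lower in all 3 low-fat segments. Jchain, which joins IgA chains, was lower by 0.35, 0.20 and 0.66 and fell over the pool means. The 8 tested genes of plasma cells and immunoglobulin transport had medians of −0.07, −0.05 and 0.00, near those of all genes. B cell genes had −0.11, −0.08 and 0.09, and T cell genes had 0.13, −0.05 and −0.07.

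Rps4l (chr6:148354656-148355596), a transcribed copy of a ribosomal protein gene, was lower in every segment. It had levels of 6.97, 6.70 and 6.19 in old mice and of 8.09, 8.32 and 7.93 in young mice, with no overlap between the ages. Its mean difference of −1.50 (SE 0.12, adjusted p = 0.052) was lower than that of every other gene but Ighg3, and in the high-fat pools the differences were −1.23, −1.46 and −1.48. It fell by 1.44 over the pool means (SE 0.05, adjusted p = 0.00039). A second probe set gave −0.88, −1.11 and −1.05. The copy it resembles, Rps4x on the X chromosome, stood at 10.70, 11.29 and 11.51 in old and at 10.87, 11.21 and 11.50 in young mice. RNA of such copies may bind the same probes, so the source of the signal is uncertain. The 25 tested ribosomal protein genes had medians of −0.08, 0.04 and 0.02.

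**Figure D2:**
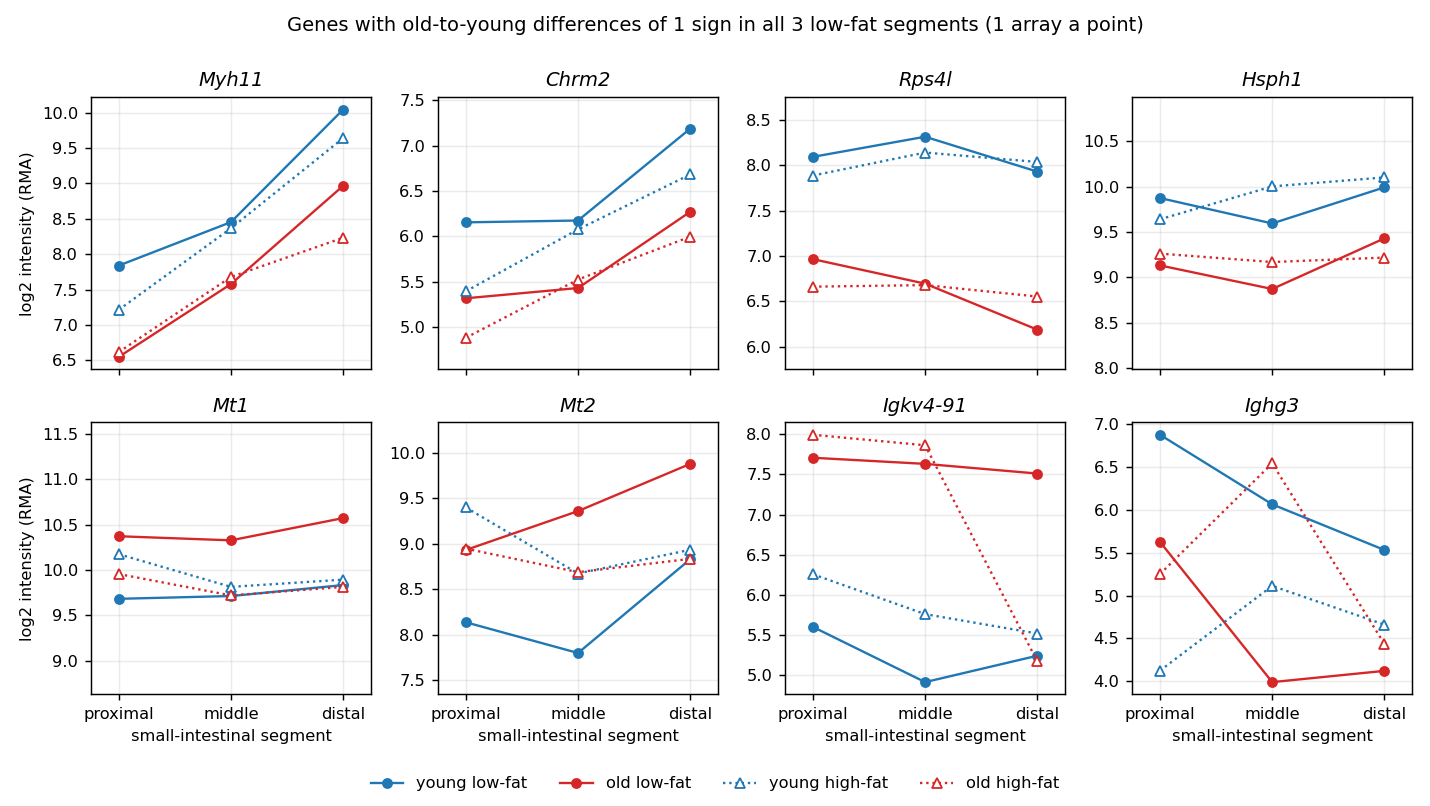
Log2 intensities (vertical axes) of 8 genes in the proximal, middle and distal segment (horizontal axes), 1 array per point, with young mice in blue, old mice in red, the low-fat diet as filled circles the high-fat diet as open triangles, and a scale of its own in each panel. The low-fat difference has 1 sign in all 3 segments for each gene, whereas on the high-fat diet Mt1 and Mt2 differ by at most 0.45 and Ighg3 is higher in old mice in 2 segments.

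Several of the largest differences belonged to single segments. Car1, a carbonic anhydrase that hydrates carbon dioxide, had levels of 4.34, 4.93 and 10.45 along the gut of old mice and of 4.53, 4.38 and 7.87 in young mice. It was over the intensity limit only in the distal segment, where the difference of 2.58 was the largest of that segment. It was 1.5 there in the high-fat pools, and Car1 rose over the pool means (adjusted p = 0.027). Saa1, an acute phase apolipoprotein, had levels of 3.34, 3.04 and 5.54 in old and of 3.03, 4.06 and 7.91 in young mice, of which only the distal young array was over the limit. Its distal difference was −2.37, and −2.29 on the high-fat diet. Every old array of both diets was under the limit, so Saa1 entered the test only through young arrays and its call over the pool means is not read as a fall. Reg3g and Reg3b, lectins that kill bacteria, fell over the pool means, with low-fat differences of −0.63, −0.26 and −0.30 for Reg3g and of −0.60, −0.16 and −0.32 for Reg3b. Of the 13 tested acute phase and antimicrobial genes, 6 including Saa1 were called lower and none higher over the pool means (2.17% and 0.789% of all genes). Thrsp, a regulator of lipogenesis, had −0.55, −0.51 and −1.17 (pool means adjusted p = 0.080).

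In the proximal segment, Cybrd1, the reductase that prepares dietary iron for uptake, had levels of 11.12 in old and 9.63 in young mice, a difference of 1.49, against 0.00 and −0.22 further down. Its high-fat proximal difference was 0.90, and the pool means gave no call (adjusted p = 0.073). Slc40a1, the iron exporter ferroportin, had low-fat differences of 0.42, −0.85 and −0.47. Plscr2, of the phospholipid scramblases, had levels of 6.58, 5.03 and 4.98 in old and of 5.31, 4.19 and 5.12 in young mice, over the limit on 1 of 6 arrays. No young array of either diet was over the limit, so Plscr2 entered the test only through old arrays, and its call over the pool means is not read as a rise. Car3, a carbonic anhydrase of adipose tissue and muscle, had −1.50, 0.60 and −0.92. The adipocyte list as a whole had medians of −0.12, 0.06 and −0.40, with a summed level of 11.40, 11.71 and 11.09 in old against 11.52, 11.66 and 11.53 in young mice. Fgf7, a growth factor for epithelium made by fibroblasts, had differences of −1.24, −0.21 and −0.51 (pool means adjusted p = 0.094), and only its proximal young array was over the limit. Gm5409, which lies among the trypsinogen genes, was 1.09 higher in the proximal segment and had −0.38 and 0.18 in the others. It was not on the acinar list, whose summed level there was 16.07 in old and 15.85 in young mice.

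Bco1, which cleaves beta-carotene to retinal, had levels of 9.32, 9.10 and 6.48 in old and of 10.65, 10.49 and 6.75 in young mice. It was lower by 1.33 and 1.39 in the proximal and middle segments and by 0.26 in the distal one, and it fell over the pool means (adjusted p = 0.036), where its high-fat levels were low throughout, at 5.60 to 7.13. Mcoln3, an endosomal cation channel, showed the same pattern, with −1.03, −1.15 and 0.09. In the middle segment Akp3, an alkaline phosphatase of the upper intestine, was at 6.56 in old and 8.02 in young mice, while in the proximal segment it stood at 13.01 and 12.91. Fabp6 had differences of −1.17, −0.64 and 0.00, against −0.89, −3.73 and −0.01 in the high-fat pools. Cubn, the cobalamin receptor cubilin, had levels of 10.44, 11.55 and 11.89 in old and of 11.02, 11.90 and 12.00 in young mice. For Cubn the difference narrowed along the gut, from −0.58 through −0.35 to −0.10, and Fabp6 and Cubn fell over the pool means. Differences between segments have no error here, with 1 array per segment and age. A shift of a cutting point along the gut cannot be told apart from a change within a segment, and Gata4, a factor of the upper intestine, stood at 9.38, 9.02 and 7.97 in old and at 9.34, 9.04 and 7.80 in young mice.

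**Figure D3:**
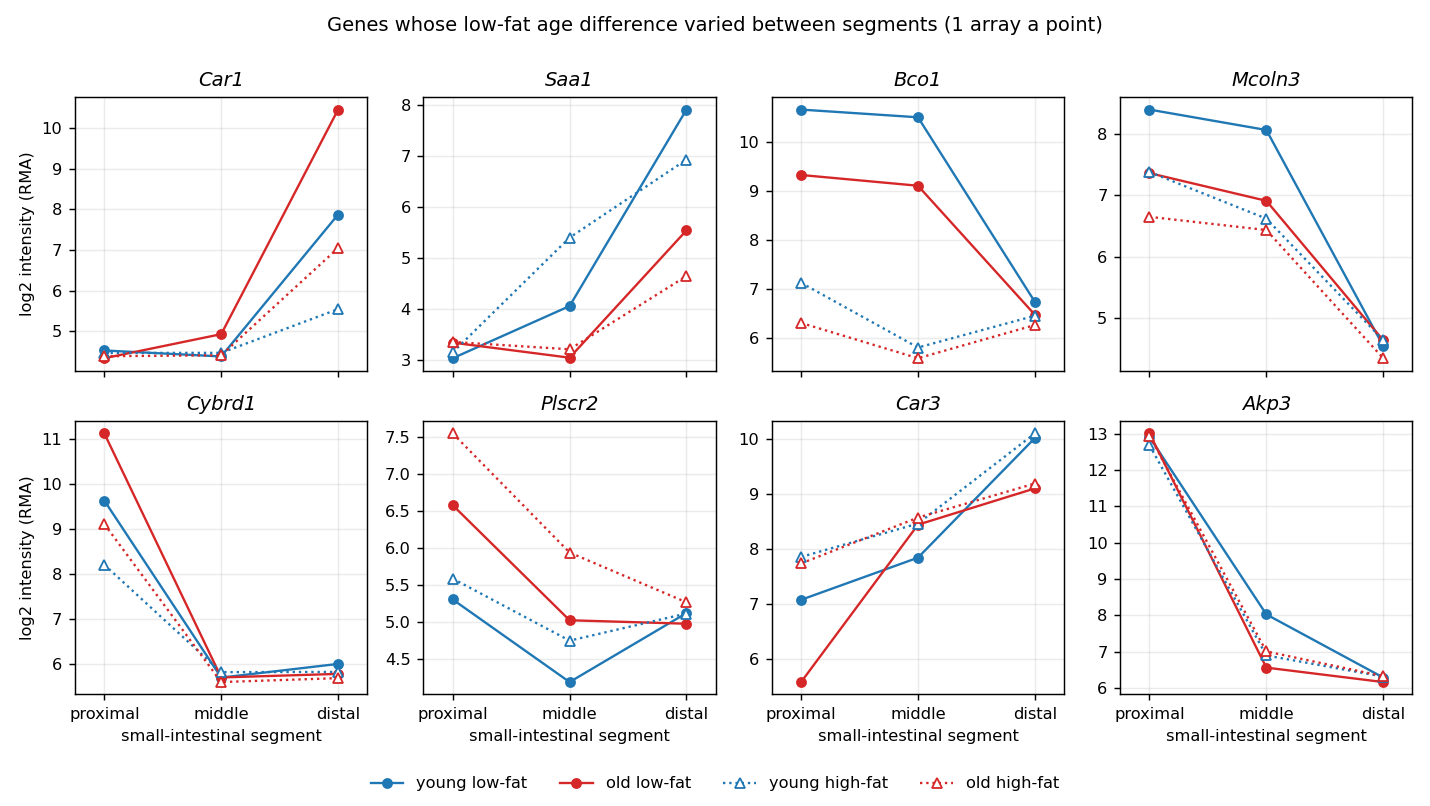
Log2 intensities (vertical axes) of 8 genes whose low-fat age difference varied between the proximal, middle and distal segment (horizontal axes), 1 array per point, with old mice in red, young mice in blue, low-fat as filled circles, high-fat as open triangles, and a scale of its own in each panel. Car1 and Saa1 separate by age in the distal segment (differences of 2.58 and −2.37), Cybrd1 in the proximal segment (1.49), and Bco1 in the proximal and middle segments.

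Genes of fatty acid oxidation were slightly higher in old mice. Of the 34 fatty acid oxidation and ketogenesis genes, 22 were higher in all 3 segments, as were 17.2% of all genes, with medians of 0.05, 0.07 and 0.11. Over both diets 6, including Cyp4a31, were called higher (0.789% of all genes were). Pdk4, a kinase that restrains glucose oxidation, had levels of 9.84, 9.39 and 8.35 in old and of 9.61, 8.90 and 7.29 in young mice, higher in each segment and most in the distal one. Acot1, an acyl-CoA thioesterase, had 6.19, 6.19 and 6.40 against 5.86, 5.64 and 5.65. Cyp4a10 and Cyp4a31, fatty acid hydroxylases, differed by 0.92 and 0.93 in the proximal and by 0.38 and 1.25 in the middle segment. Cyp4a10 was over the intensity limit on only 2 of the 6 low-fat arrays, both proximal. Pdk4, Acot1 and Cyp4a10 rose over the pool means. Cyp4a31 was under the limit on all 6 low-fat arrays and entered the test through the high-fat arrays. Its high-fat differences were 0.07, 1.19 and 0.12. As its low-fat levels were not measured well, its call over the pool means is not read as a rise. Fatty acid synthesis had medians of −0.08, −0.02 and −0.14, with 9 of 15 genes lower in the mean (5513 of all 11914 genes were). Fatty acid uptake and triglyceride synthesis had 0.01, −0.03 and 0.08. Of the 22 genes of uptake and triglyceride synthesis, 14 were higher in the mean (6401 of all 11914 genes were). In all 3 segments 6 of the 22 were higher, and 2 rose. Scd1, which desaturates fatty acids, was lower by 0.79, 0.35 and 0.76 in old mice, without a call over the pool means (adjusted p = 0.25).

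Other rises were spread over the segments. Upb1, of pyrimidine breakdown, had levels of 9.06, 8.38 and 6.47 in old and of 8.50, 7.37 and 5.71 in young mice, a mean difference of 0.78 (SE 0.09, paired limma adjusted p = 0.095), and rose over the pool means (adjusted p = 0.0025). Fmo1, a flavin monooxygenase, had 8.08, 7.86 and 6.85 against 7.59, 7.06 and 6.33. Serpinb5, a serpin known as maspin, had differences of 0.17, 1.19 and 1.39. Gm10451 had 0.40, 1.02 and 1.16. Ceacam10, of the carcinoembryonic antigen family, had 0.38, 1.03 and 0.63. All 4 rose. Among genes of MHC class I presentation, Psmb9 and Psmb8 of the immunoproteasome and the peptide transporter Tap2 had mean differences of 0.31, 0.29 and 0.27 and rose, 3 of 13 list members (0.789% of all genes), and 8 of the 13 were higher in all 3 segments (17.2% of all genes). The 9 MHC class II genes had medians of 0.44, 0.10 and 0.03, led by Cd74, the invariant chain (0.61, 0.09 and 0.03). None of the 9 was called in either fit.

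Many lists had medians near 0. Of 46 lists with at least 3 tested genes, 34 had medians within 0.15 of 0 in every segment. Among them were brush border structure (0.00, −0.03 and 0.02), sugar digestion and transport (0.00, 0.00 and 0.04), cholesterol synthesis (0.05, 0.02 and −0.10), oxidative phosphorylation (−0.06, 0.03 and −0.03), stem cell and Wnt target genes (0.01, 0.00 and −0.06) and the cell cycle (−0.10, 0.04 and 0.00). None of the members of these 6 lists was called over the pool means. Some absorptive lists held calls. Of all genes, 2.17% fell, 0.789% rose and 14.6% were lower in all 3 segments. Of 11 genes of ileal bile acid uptake 2 fell, with medians of −0.16, −0.20 and −0.04, and of 14 genes of cobalamin, folate and B vitamins 2 fell, with 6 lower in all 3 segments. Of 19 genes of carotenoid and retinoid handling 2 fell and 4 rose. Of 22 genes of peptide digestion and amino acid transport, 11 were lower in all 3 segments, with medians of −0.07, −0.04 and −0.03 and no call. Their largest mean difference was that of Tmprss15, the trypsinogen activator enteropeptidase, at −0.38 (adjusted p = 0.24).

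The high-fat pools held other mice and shared no array with the low-fat comparison. Of the 54 genes over 2-fold in a low-fat segment, 47 had a mean high-fat difference of the same sign (87.0%), as did 64.7% of all genes. Across genes, which are not independent replicates, the mean low-fat and high-fat differences had a Pearson correlation of 0.536 (Spearman 0.423). The smooth muscle genes had medians of −0.65 (low-fat) and −0.53 (high-fat), and the fibroblast genes had −0.44 and −0.39. For MHC class I presentation the medians were 0.06 (low-fat) and 0.00 (high-fat), with 11 and 6 of 13 genes higher in the mean. Of all 11914 genes, 6401 (low-fat) and 6570 (high-fat) were higher. For MHC class II the medians were 0.18 and 0.06. Beside Mt1, the genes with the smallest p for a difference between the diets were Tmem120b, Rsl1, Tns4, Cd6 and Pcsk6, with differences between the diets of −0.59, 0.52, 0.51, 0.56 and −0.45. None passed (limma adjusted p = 0.999).

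**Figure D4:**
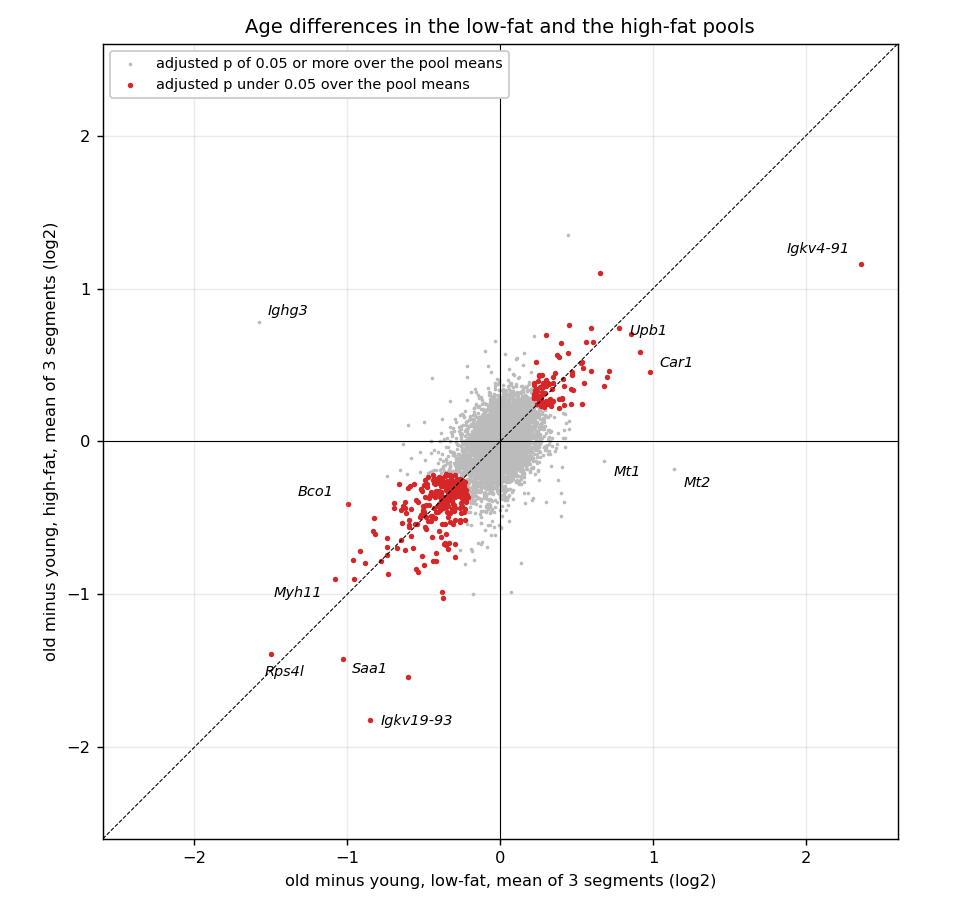
Mean old minus young difference (log2) over the 3 segments on the low-fat diet (horizontal axis) and on the high-fat diet (vertical axis) for 11914 genes, 1 point per gene, in red where the pool means passed limma at an adjusted p under 0.05. Rps4l, Myh11 and Saa1 lie low and Igkv4-91 and Upb1 high on both axes, while Mt1, Mt2 and Ighg3 lie away from the dashed line of equal difference.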

How the data were processed

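RNA pools of scraped small intestine were hybridized by the authors to Affymetrix Mouse Gene 1.0 ST arrays. The deposited values are log2 intensities that the authors computed by RMA (Robust Multi-array Average), which corrects background, quantile-normalizes and summarizes each probe set, with a version not given in the sources used here. Probe set IDs are those of Affymetrix transcript clusters, although the study's methods describe Entrez-based sets. Quantile normalization makes levels relative, and low intensities are compressed. The labels give 1 week of chow and 2 weeks of run-in, the methods 12 days and 3 weeks.

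Groups and segments came from the array titles. Of 35556 probe sets, 21789 listed 1 symbol, 1621 several and 12146 none, and 21698 of the former matched RefSeq by Entrez ID. A gene was represented by its probe set of highest mean over 12 arrays. The values of all deposited probe sets ran from 1.8 to 14.49, with array medians of 5.57 to 5.70. Over the genes tested the array medians were 7.46 to 7.54. Differences within a segment were counted over 2-fold. limma 3.58.1 in R 4.3.3 was fitted to the 6 low-fat arrays with segment as a block (2 residual degrees of freedom), to all 12 arrays for the difference between diets (6) and to the 4 pool means with diet as a covariate (1). Benjamini-Hochberg adjusted p-values under 0.05 were called. The fits were tested on simulated data. The segment numbers of the titles pair the arrays: deviations of same-segment arrays from their group means correlated at 0.915, 0.698 and 0.925. Python 3.11.15 with pandas 2.3.3 was used for the rest. The number of arrays limits the precision.

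The 48 gene lists and the tests were chosen with earlier results of these data known. The genes named are those over 2-fold in at least 2 segments, the 12 highest and 12 lowest mean differences, the 4 highest and lowest in each segment, the leading members and the most deviant member of each list, the 6 genes with the smallest p between diets, and Cubn, Cybrd1 and Mt2. Tagln, Fgf7, Igha, Rps4x, Gata4 and Vil1 were added as markers or with their values known. The alternatives covered the filter, acinar genes, scaling, probe set choice, variance model, the block and each segment left out.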

Additional observations from a re-analysis of the deposited data

Results flagged for a closer look

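In 4 of the genes named here the low-fat difference had 1 sign in all 3 segments and the high-fat difference the opposite sign in all 3. The age difference was 0.81 higher on the low-fat diet for Mt1, 0.52 for Rsl1 and 0.51 for Tns4, and it differed by −0.59 for Tmem120b. Over all genes tested 202 (1.7%) had this pattern. None of the 4 passed the limma test of that difference (adjusted p = 0.999), and these genes were named for the smallest p of that test or for their low-fat difference.

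Of 6885 probe sets over the intensity limit that list no symbol or several, and so were outside the comparisons, 7 were over 2-fold in the same direction in all 3 low-fat pairs. The mean differences of the 2 with several symbols were −2.05 for one listing Ighv3-6 and Igha and −1.63 for one listing Igha and Ighv1-33. The 5 without a symbol had mean differences of 1.26, 1.28, 3.28, −1.79 and −1.17. The one at 3.28 was higher by 2.99, 3.78 and 3.06 in the low-fat segments and had −0.19, −0.83 and −0.97 in the high-fat pools. These values were selected among many and have no test.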

How the results depend on the processing

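The number of arrays and the single array per segment and age set the limits, since no value measures the spread between mice. With a threshold of 1.5-fold, the segments had 188, 70 and 140 genes from proximal to distal, and with acinar genes kept 21 passed 2-fold in the middle segment. The paired limma count of 1 became 35 with an intensity limit of 100, 3 after median centring, 7 after quantile normalization, 5 with the mean of the probe sets, 168 with an intensity trend and robust variance, and 0 without the replicate block (unpaired). Leaving out 1 segment gave 0 to 11 genes. Fitted to all 12 arrays, it called 1 other gene, Rps4l (adjusted p = 0.0081). The 353 calls over the pool means became 88 to 258 with 1 segment left out, 172 after quantile normalization and 87 with no filter on intensity, the last pair of settings chosen after seeing the data. The count for the difference between diets was 0 under every alternative run. With 1 pair left out, mean low-fat differences turned sign for Cybrd1 (−0.109 without the proximal pair, up to 0.748), Gm5409 (−0.097 without the proximal pair, up to 0.636) and Rny3, a small RNA (−0.034 without the distal pair, up to 0.647). Among single genes and list medians, 625 values were counted as unchanged, 56 gained a call, 3 lost one and 21 moved by more than their spread. A list median counted as unchanged if it moved by less than its SD over the 3 segments. Medians near 0 could therefore change sign, as for T cell genes (−0.01, and 0.019 without the middle pair). Scaling moved the median of all genes by at most 0.044.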
